A study of Homo sapiens with 4 samples.

Results

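The transcripts described here are 10 genes that ERK signalling switches on and that, for the most part, act back on the same pathway: the phosphatase genes DUSP4, DUSP5 and DUSP6, the Sprouty genes SPRY1, SPRY2 and SPRY4, the Spred genes SPRED1 and SPRED2, and the transcription factor genes ETV4 and ETV5. They were chosen by name, each was found under its symbol among the 62649 gene identifiers counted, and all 10 passed the filter on low counts. They were read in A375, an established human melanoma line with an activating BRAF mutation, by polyA-selected RNA sequencing. The control group is 2 libraries of parental cells. The resistant group is 2 libraries of A375 cells that had been exposed to vemurafenib, an inhibitor of mutant BRAF, at concentrations that doubled weekly from 0.1 µM up to 6.4 µM. The titles name no further drug for these libraries, and whether vemurafenib or vehicle was present at harvest is not given in the sources used here.

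The pathway runs from RAS through the RAF and MEK kinases to ERK, which enters the nucleus and raises a set of transcripts within a short time. DUSP proteins of this group remove the activating phosphates from ERK, while Sprouty and Spred proteins act further up, on the path from receptor to RAS and RAF. The levels of these transcripts are widely used as a readout of ERK output in melanoma cells with mutant BRAF, where they depend on the mutant kinase and drop when it is first inhibited. Comparing resistant and parental cells asks where this readout stands after the cells have adapted to the drug.

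Counts assigned to genes ranged from 68022689 to 87178097 per library. The replicates of the controls were less alike than those of the resistant cells: over 10100 genes, the SD of the log2 difference between replicates was 0.409 for controls and 0.311 for resistant cells. Every count in control replicate 1 was even, as if its reads had entered 2 times, which would leave its CPM (counts relative to library size after TMM scaling) unaffected but not its counting error. Of 8 melanoma lineage genes, edgeR called 0 and 1 had an unadjusted p under 0.05, DESeq2 called 0, and 6 had a negative fold change (median log2 -0.25). The neural crest factor gene SOX10 was at 704 to 1149 CPM, while the pigment genes TYR and DCT were under 1 CPM in each library. MITF, the pigment cell master regulator gene, had 42.2 and 22.8 CPM for control replicates 1 and 2 against 12.3 and 23.4 CPM (log2 -0.86, edgeR adjusted p = 0.371), and edgeR called it lower without the filter on low counts and without control replicate 2. Of 12 markers of blood, endothelial, epithelial and fibroblast cells, 11 could be tested and summed to between 12.9 and 19.0 CPM per library. The epithelial keratin gene KRT14 was lower at 1.62 and 2.08 against 0.309 and 0.314 CPM (edgeR adjusted p = 0.0355, 0.186 without resistant replicate 2 and 0.0789 without resistant replicate 1). Fibroblast markers, named after their values were seen, included LUM with 2.18 and 1.43 against 0.366 and 0.145 CPM (edgeR adjusted p = 0.0569, DESeq2 1.69e-04), PDGFRA (log2 -0.83, edgeR adjusted p = 0.338) and DCN (log2 -0.97, 0.429), while COL1A1 was at log2 0.28. The part of these markers in the results below was not tested. In bulk RNA, a change in the number of cells that express a gene and a change per cell cannot be told apart.

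None of the 10 feedback genes passed edgeR's quasi-likelihood test over all genes (Benjamini-Hochberg adjusted p under 0.05), where 0.577% of 24961 tested genes were called higher and 0.513% lower. One member, DUSP4, had an unadjusted p under 0.05, as did 13.5% of all tested genes in either direction. DESeq2 called 1 member, again DUSP4, higher, against 2.40% of the genes it tested. Fitted log2 fold changes, resistant over control, were positive for 5 members and negative for 5, with a median of 0.10 beside 0.01 over all tested genes. The groups did not overlap in 3 members (DUSP4, DUSP5 and SPRED1), against 44.6% of tested genes. In 7 members the 95% interval of the fold change lay inside a 2-fold change in either direction. The share of all tested genes with such an interval was not counted. The labels do not say that libraries of a group came from separate cultures, so the p-values measure only the spread between these libraries.

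**Figure D1:**
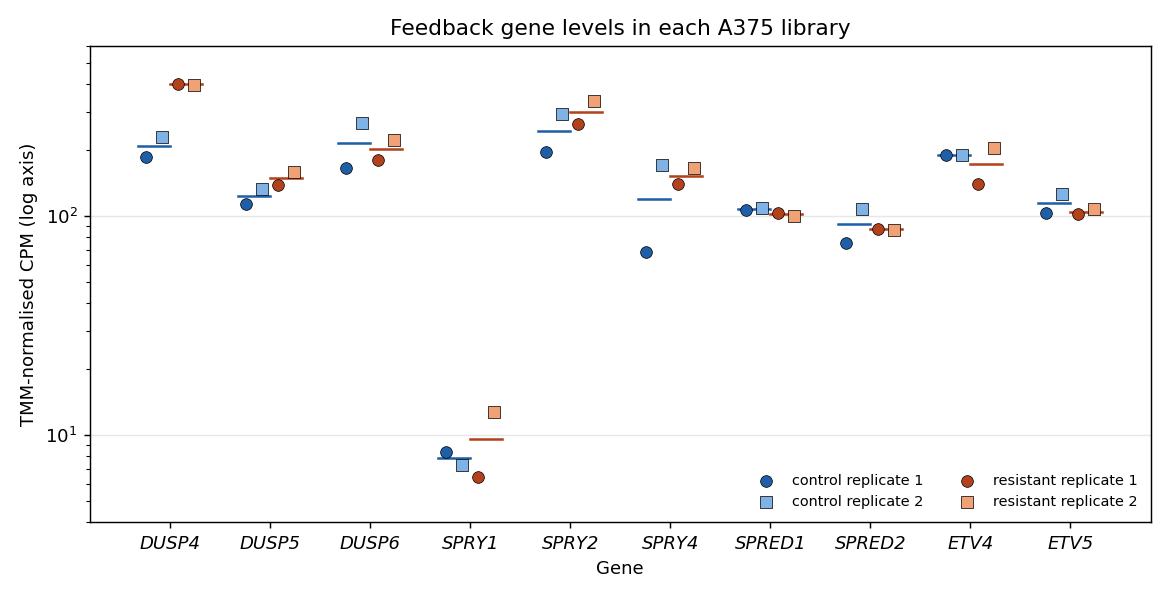
TMM-normalised CPM (log axis) of the 10 feedback genes in each library; blue marks are controls and orange marks resistant cells, circles replicate 1 and squares replicate 2, and short lines the group means (n = 2). DUSP4 is at 403 and 397 CPM in the resistant libraries against 187 and 231 in the controls, and control replicate 1 is the low mark of SPRY4 at 68.6 CPM.

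DUSP4, which encodes a nuclear phosphatase of ERK and related kinases (ENSG00000120875.9, chromosome 8, 29333064 to 29350684, minus strand, GRCh38), had 187 and 231 CPM in control replicates 1 and 2 and 403 and 397 CPM in resistant replicates 1 and 2. Both resistant libraries lay above both controls, and they differed from each other by 1.02-fold. The group means were 209 ± 31.8 and 400 ± 4.29 CPM (SD, n = 2). The fitted difference was 1.92-fold (log2 0.94 ± 0.18 SE, 95% interval 0.51 to 1.36). The edgeR adjusted p was 0.0642, so the difference missed the threshold, while DESeq2 gave an adjusted p of 7.67e-04. Over the alternatives the edgeR adjusted p ran from 1.56e-04 without a filter on low counts to 0.240 without resistant replicate 2, and it passed at 0.00452 without control replicate 2. The size moved less than the call: the log2 fold change was 0.79 without control replicate 1, 1.10 without control replicate 2, and 0.94 and 0.95 without resistant replicates 1 and 2.

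DUSP5, the gene of an inducible nuclear phosphatase selective for ERK (ENSG00000138166.6, chromosome 10, 110497907 to 110511533, plus strand), had 114 and 133 CPM in the controls and 139 and 159 CPM in the resistant libraries. The resistant libraries were both above the controls, but by little: the nearest libraries of the 2 groups were 133 and 139 CPM. The log2 fold change was 0.27 ± 0.18 (SE, 95% interval -0.14 to 0.68, edgeR adjusted p = 0.581).

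DUSP6, which encodes the cytoplasmic ERK phosphatase (ENSG00000139318.8, chromosome 12, 89347235 to 89352501, minus strand), had 166 and 267 CPM in the controls and 181 and 224 CPM in the resistant libraries. Both resistant values lay between the controls. The log2 fold change was -0.10 ± 0.25 (SE, 95% interval -0.68 to 0.48, edgeR adjusted p = 0.926), and it was 0.29 without control replicate 2 and -0.40 without control replicate 1. The gap between the controls, 1.61-fold, was matched or exceeded by 7.24% of the 10089 genes that averaged 10 CPM or more. The counting took no account of strand, and 28.6% of the exonic bases of DUSP6 overlap an antisense gene, so reads from that stretch were left out and its level rests on the other 71.4%.

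**Figure D2:**
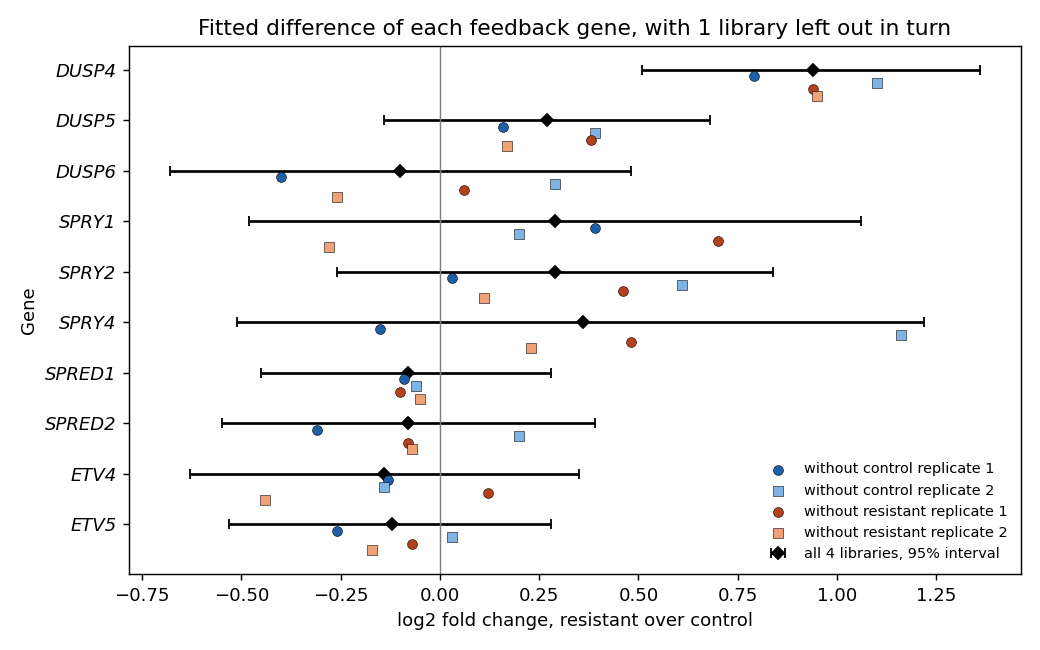
Fitted log2 fold change of each feedback gene, resistant over control: black diamonds with 95% intervals use all 4 libraries, and coloured marks below each show the value with 1 library left out. The interval of DUSP4 alone lies off 0 (0.51 to 1.36), and SPRY4 moves from -0.15 to 1.16 depending on the control left out.

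Among the 3 phosphatase transcripts, DUSP4 held a larger share in both resistant libraries than in either control. Per kilobase of exon that no other gene overlaps, DUSP4 made up 19.6% and 17.5% of the 3 in control replicates 1 and 2 and 31.6% and 27.5% in resistant replicates 1 and 2. The share of DUSP6 was 46.0% and 53.4% against 37.3% and 40.9%, and that of DUSP5 was 29.0% to 34.3% in all libraries. The sums overlapped, at 131 and 181 CPM per unshared kilobase for the controls against 176 and 199 for the resistant libraries. The ratio of DUSP4 to DUSP6 on this scale was 0.426 and 0.328 for the controls against 0.845 and 0.672 for the resistant libraries, so DUSP6 was the more abundant in each. DUSP4 relative to DUSP5 was 0.571 and 0.605 against 1.02 and 0.869. For both ratios the groups did not overlap (exact two-sided permutation p = 0.333 each, the smallest that 2 libraries against 2 allow). Against SPRY1 and SPRY4 the ratios of DUSP4 overlapped between the groups (exact permutation p = 0.667 each), and against the other 5 members they did not. DUSP4, whose own groups did not overlap, stands in every ratio, so these separations largely restate its own difference. Ratios of DUSP4 to genes outside the members were not computed.

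Sprouty proteins are membrane-associated adaptors that hold back receptor signalling to RAS and RAF. SPRY2 (ENSG00000136158.12, chromosome 13, 80335976 to 80341126, minus strand) had 196 and 293 CPM in the controls and 263 and 335 CPM in the resistant libraries. The groups overlapped, with control replicate 1 lowest and resistant replicate 2 highest. Its log2 fold change was 0.29 ± 0.24 (SE, 95% interval -0.26 to 0.84, edgeR adjusted p = 0.678). Without control replicate 1 it was 0.03 and without control replicate 2 it was 0.61.

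SPRY2 and DUSP6 were among the most abundant members and shared the low value in control replicate 1, so the 250 bases before their start sites are shown. They come from RefSeq (GRCh38.p14), which held windows for 6 of the 10 members, and both are given 5′ to 3′ on the minus strand, at chr13:80341127-80341376 for SPRY2 and chr12:89352502-89352751 for DUSP6. Capitals mark CCGGAA, 1 form of an ETS site (the family of ETV4 and ETV5), and shorter or other forms were not searched. They also mark TGACG, which is part of the cyclic AMP response element.
SPRY2: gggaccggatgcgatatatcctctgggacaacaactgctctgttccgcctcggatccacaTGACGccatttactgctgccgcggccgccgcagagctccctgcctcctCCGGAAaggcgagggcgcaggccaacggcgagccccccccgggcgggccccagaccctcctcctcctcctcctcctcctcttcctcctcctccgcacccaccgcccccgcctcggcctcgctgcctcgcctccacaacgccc
DUSP6: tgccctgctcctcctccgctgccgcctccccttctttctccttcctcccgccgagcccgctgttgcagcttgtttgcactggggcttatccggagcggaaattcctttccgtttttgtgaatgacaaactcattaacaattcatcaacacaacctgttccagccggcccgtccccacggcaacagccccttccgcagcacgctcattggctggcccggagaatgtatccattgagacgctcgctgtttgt
Windows from 250 bases before to 50 after the start were searched on both strands for these letters and for 2 further motifs. One was the AP-1 motif, spelled TGANTCA. The other was the site of the repressor CIC, searched only as TGAATGAA and TCAATGAA. Other spellings of that site were not searched, so they would be missed. No motif holds another of them. CCGGAA stood in the window of SPRY2 alone among the 6, and in 17.2% of 34796 windows of that length. TGACG stood in those of SPRY2, SPRY4 and SPRED2, and in 24.5% of all windows. The SPRED2 match lay after the start, at bases 30 to 34. The SPRY4 window lies inside the annotated gene, and 170 of its 250 bases before the start are annotated exon. The AP-1 letters (7.73% of all windows) and the CIC spellings searched (2.34%) were in none of the 6. This does not show that the 6 lack a CIC site. A match is a run of letters, not a measured binding site.

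SPRY4 (ENSG00000187678.10, chromosome 5, 142310427 to 142326455, minus strand) had the widest gap between the controls of the 10 genes. It had 68.6 and 171 CPM in control replicates 1 and 2 and 141 and 166 CPM in resistant replicates 1 and 2. Control replicate 2 was the highest library and control replicate 1 the lowest, at 2.49-fold below it. A control gap of this size or larger was seen in 1.32% of 10089 genes. The log2 fold change was 0.36 ± 0.37 (SE, 95% interval -0.51 to 1.22, edgeR adjusted p = 0.762), and its sign rested on control replicate 1: it was -0.15 without that library (adjusted p = 0.997) and 1.16 without control replicate 2 (adjusted p = 0.00428).

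SPRY1 (ENSG00000164056.11, chromosome 4, 123396795 to 123403760, plus strand) was the least expressed member. It had 8.38 and 7.34 CPM in the controls and 6.47 and 12.7 CPM in the resistant libraries, from 460 to 1050 counts per library. The resistant libraries were the lowest and the highest of the 4, a gap of 1.96-fold. Among 2659 genes that averaged from 5 to under 15 CPM, as SPRY1 does, 2.63% had a gap between the resistant libraries of this size or larger. The log2 fold change was 0.29 ± 0.33 (SE, 95% interval -0.48 to 1.06, edgeR adjusted p = 0.791), and it was -0.28 without resistant replicate 2 and 0.70 without resistant replicate 1. SPRY2 made up 76.5% to 82.9% of Sprouty transcripts per kilobase in each library, SPRY4 14.2% to 21.9% and SPRY1 1.56% to 2.88%. The Sprouty sums overlapped, at 73.4 and 119 CPM per kilobase for control replicates 1 and 2 against 105 and 133 for the resistant pair.

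Spred proteins bind the RAS inhibitor neurofibromin and bring it to the membrane. SPRED1 (ENSG00000166068.13, chromosome 15, 38252836 to 38357249, plus strand) was the steadiest member, at 107 and 109 CPM in the controls and 104 and 100 CPM in the resistant libraries. The resistant libraries lay just below the controls, and the log2 fold change of -0.08 ± 0.16 (SE) had a 95% interval from -0.45 to 0.28 (edgeR adjusted p = 0.893). SPRED2 (ENSG00000198369.10, chromosome 2, 65310851 to 65432637, minus strand) had 75.8 and 108 CPM in the controls and 87.7 and 86.7 CPM in the resistant libraries. Both resistant values lay between the controls here too. Its log2 fold change was -0.08 ± 0.20 (SE, 95% interval -0.55 to 0.39, edgeR adjusted p = 0.928), and it was -0.31 without control replicate 1 and 0.20 without control replicate 2. NF1, the gene of neurofibromin, had 158 and 139 CPM in the controls against 134 and 126 CPM (edgeR adjusted p = 0.706; named after its values were seen).

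ETV4 and ETV5 encode ETS transcription factors of the PEA3 group that carry ERK output to further genes. ETV4 (ENSG00000175832.13, chromosome 17, 43527844 to 43579620, minus strand) had 191 CPM in each control and 141 and 206 CPM in resistant replicates 1 and 2. Here the controls agreed and the resistant libraries lay on either side of them. The log2 fold change was -0.14 ± 0.21 (SE, 95% interval -0.63 to 0.35, edgeR adjusted p = 0.856), at 0.12 without resistant replicate 1 and -0.44 without resistant replicate 2. ETV5 (ENSG00000244405.8, chromosome 3, 186046314 to 186110318, minus strand) had 103 and 126 CPM in the controls and 102 and 108 CPM in the resistant libraries. The groups overlapped, and the log2 fold change was -0.12 ± 0.17 (SE, 95% interval -0.53 to 0.28, edgeR adjusted p = 0.837). ETV4 made up 69.4% to 75.8% of the pair per kilobase in each library.

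For most of these genes the replicates stood further apart than the groups. In 7 of 10 members a gap between replicates of the same group was larger than the fitted difference between the groups, and in 5 (DUSP6, SPRY2, SPRY4, SPRED2 and ETV5) that was the gap between the controls. How often this holds over all tested genes was not counted, so it cannot be called particular to the members. Control replicate 1 was the lowest of the 4 libraries for 6 members, while it was lowest for 29.6% of the 10089 genes with at least 10 CPM. The same library was lowest for 9 of 14 other transcripts raised by ERK signalling. That library was also lowest for 4 of 7 genes known to restrain or degrade the members. Among other genes of the same families it was lowest for 3 of 10, and in the core pathway for 6 of 19. The median deviation from the gene's own mean in control replicate 1 was -0.24 (log2) over the members and -0.32 over those 14 genes, against 0.11 and 0.23 in control replicate 2. Over those 14 genes the deviation in control replicate 1 ran from -1.77 to 0.08. The immediate early gene EGR1 was far down that range, at -1.28. It had 318 and 862 CPM in control replicates 1 and 2 and 1217 and 1056 CPM in resistant replicates 1 and 2. What sets control replicate 1 apart was not tested.

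**Figure D3:**
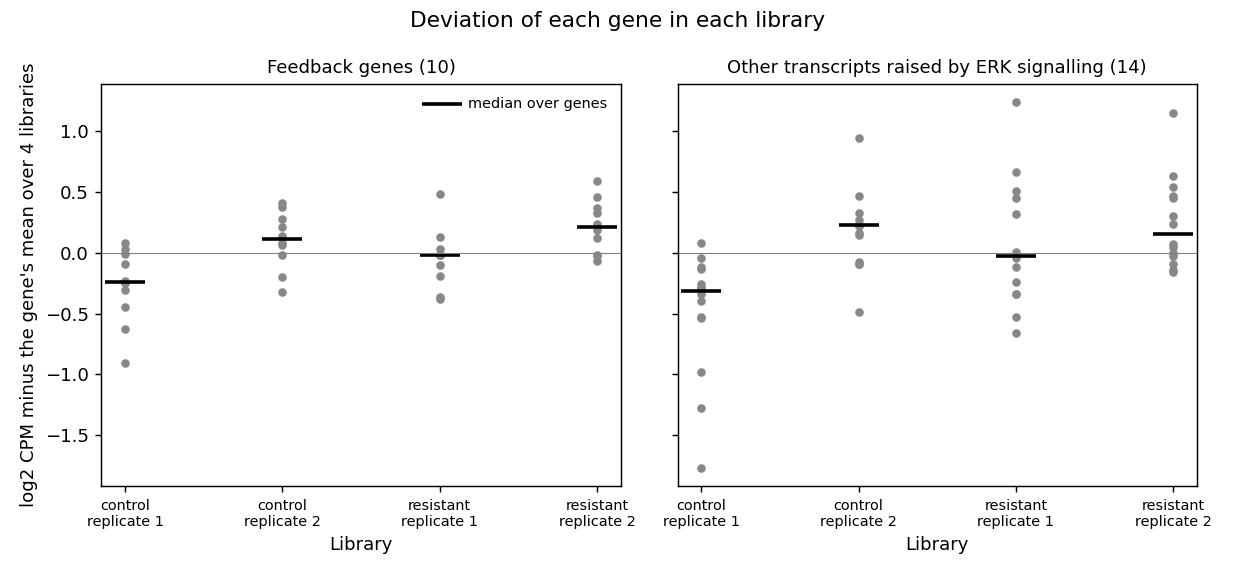
Log2 CPM of each gene minus its mean over the 4 libraries, for the 10 feedback genes (left) and 14 other transcripts raised by ERK signalling (right); grey points are genes and black bars medians. The median of the feedback genes is -0.24 and 0.11 in control replicates 1 and 2, and -0.02 and 0.21 in resistant replicates 1 and 2.

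Compared per kilobase of annotated exon, SPRY2 had the highest mean of the members in both groups, at 76.0 ± 21.4 CPM per kilobase in controls and 93.0 ± 15.9 in resistant cells (SD, n = 2). In the controls it was followed by DUSP6 (56.1 ± 18.5), ETV4 (54.4 ± 0.118), DUSP5 (48.8 ± 5.45) and DUSP4 (28.7 ± 4.37). The libraries of SPRY2, DUSP6 and ETV4 overlapped from each to the next, so their order is not resolved in the controls. Counted over the exonic bases it shares with no other gene, DUSP6 came to 78.6 ± 26.0 in controls and 73.5 ± 11.1 in resistant cells, level with SPRY2 in the controls. Over all annotated exon in the resistant cells, DUSP5 (58.8 ± 5.83), DUSP4 (55.1 ± 0.590), DUSP6 (52.4 ± 7.95) and ETV4 (49.4 ± 13.1) overlapped from each to the next. Their order on that scale is not resolved. Over unshared bases DUSP4 was rank 5 in the controls and rank 4 in the resistant cells. ETV5, SPRY4, SPRED2 and SPRED1 followed at 13.1 to 23.4 in both groups. SPRY1 was last at 1.98 ± 0.186 and 2.42 ± 1.11, above 57.4% and 60.6% of tested genes, while SPRY2 was above 98.4% and 98.7%.

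**Figure D4:**
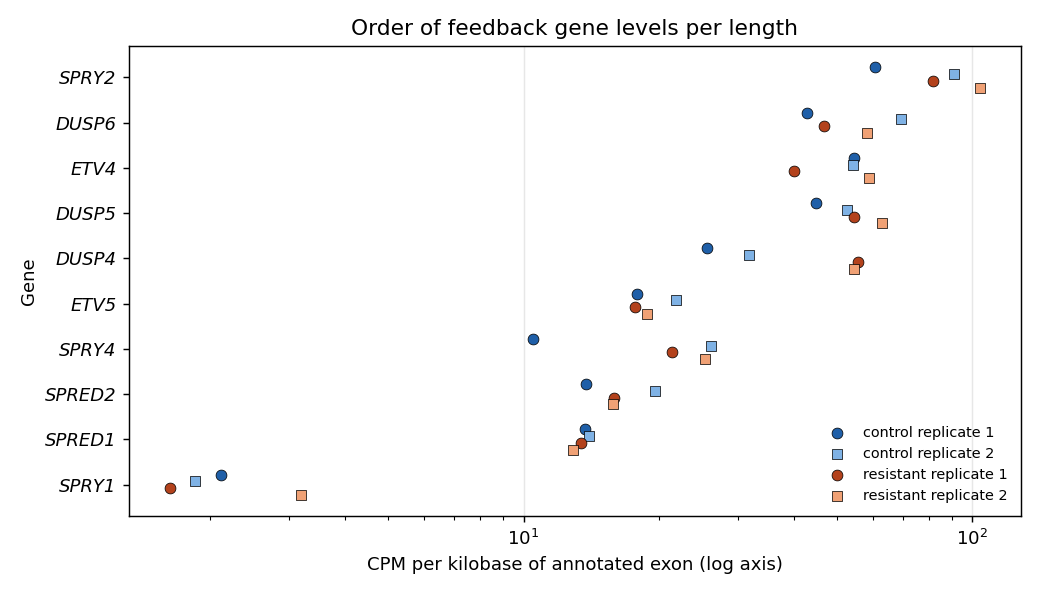
CPM per kilobase of annotated exon (log axis) of the 10 feedback genes in each library, ordered by the control mean; colours and marks separate the 4 libraries. SPRY2 is at the top (60.8 to 104), SPRY1 at the bottom (1.63 to 3.20), and the DUSP4 libraries form separate pairs at 25.6 and 31.8 and at 55.5 and 54.6.

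Other genes of the same families gave 0 calls in edgeR over all genes among 10 tested, with 2 higher and 2 lower at an unadjusted p under 0.05, and DESeq2 called 2 higher and 1 lower. DUSP9, the gene of a further cytoplasmic ERK phosphatase, had 4.81 and 3.34 CPM in the controls and 10.6 and 10.2 CPM in the resistant libraries (log2 1.35 ± 0.27, edgeR adjusted p = 0.0665, DESeq2 adjusted p = 2.17e-04). DUSP2, an inducible nuclear phosphatase gene, had 9.05 and 16.4 against 27.5 and 21.0 CPM (log2 0.93, edgeR adjusted p = 0.220, DESeq2 0.0408). In the other direction, DUSP10, whose product acts on JNK and p38 kinases, had 35.2 and 37.9 CPM in the controls and 18.3 and 22.0 CPM in the resistant libraries (log2 -0.86 ± 0.19, edgeR adjusted p = 0.0818, DESeq2 0.00935). DUSP7, a cytoplasmic ERK phosphatase gene, had 72.8 and 86.5 against 47.5 and 60.0 CPM (log2 -0.57, edgeR adjusted p = 0.234, DESeq2 0.215). The phosphatase genes thus lay on both sides of 0. Without control replicate 1 edgeR called DUSP9 higher and DUSP10 lower, and without control replicate 2 it called DUSP2, DUSP9 and SPRED3 higher.

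In the core of the pathway, 19 genes from RAS to ERK, edgeR called 1 higher and none of the 19 lower (median log2 -0.04). That gene was the drug's own target, BRAF, with 49.5 and 63.1 CPM in the controls and 118 and 148 CPM in the resistant libraries (log2 1.24 ± 0.20). It passed at an edgeR adjusted p of 0.0415 and missed at 0.199 when resistant replicate 2 was left out. The scaffold gene KSR1 had 8.47 and 9.56 against 15.1 and 15.2 CPM (edgeR adjusted p = 0.149, DESeq2 0.0414). SOS1, the gene of an exchange factor for RAS, had 59.0 and 52.4 against 50.5 and 40.8 CPM (edgeR adjusted p = 0.572).

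Of the 14 other transcripts raised by ERK signalling, edgeR called 0, while 3 had a positive difference at an unadjusted p under 0.05 and DESeq2 called 1 higher (median log2 0.13). That 1 was the ephrin receptor gene EPHA4, with 13.2 and 18.5 CPM in the controls and 32.5 and 57.7 CPM in the resistant libraries (log2 1.51 ± 0.30, edgeR adjusted p = 0.0685, DESeq2 4.72e-05). The chemokine gene CXCL8 had 98.1 and 314 against 789 and 517 CPM (log2 1.66 ± 0.49, edgeR adjusted p = 0.174). For EGR1, with the values given above, the fitted log2 difference was 0.95 ± 0.40 (edgeR adjusted p = 0.366). The cytokine gene LIF had 107 and 252 against 82.8 and 131 CPM (log2 -0.74 ± 0.39, edgeR adjusted p = 0.475). Calls in this list varied with the library left out: without control replicate 1 edgeR called EPHA4 and CXCL8 higher and LIF lower, and without control replicate 2 it called EPHA4, CXCL8 and EGR1 higher. EPHA4 was also called without resistant replicate 1, and no gene of the list without resistant replicate 2.

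None of 7 genes known to restrain or degrade the members was called. Among them edgeR and DESeq2 each called 0, and 0 had an unadjusted p under 0.05 (median log2 0.03). CIC, the repressor that ERK signalling lifts off the ETV and DUSP6 genes, had 150 and 140 CPM in the controls and 131 and 129 CPM in the resistant libraries (log2 -0.16, 95% interval -0.53 to 0.21). Its cofactor gene ATXN1L had 68.5 and 70.5 against 75.2 and 76.2 CPM, and ATXN1, its paralogue, 31.0 and 33.9 against 28.3 and 30.4 CPM. COP1, whose product marks ETV proteins for degradation, had 59.1 and 58.7 against 51.6 and 57.4 CPM.

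The position of a member on its chromosome was set beside its fold change, because neighbouring genes can differ together. Within 5 Mb of DUSP4, the 50 genes of at least 1 CPM centred on 0.12 (median log2 fold change, quartiles -0.09 and 0.27), and 94.0% of them were below DUSP4. Of these 50, 36 were above 0 and 14 below. In edgeR 2 of them were called higher and 0 lower, against 0.577% and 0.513% of all tested genes. Within 5 Mb of DUSP6, 22 of 30 such genes were below 0 and their median was -0.24, while 63.3% were below the -0.10 of DUSP6. Around ETV5 the neighbours had a median of 0.16 over 55 genes, and 16.4% were below ETV5. Medians around the other 7 members ran from -0.09 to 0.11.

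**Figure D5:**
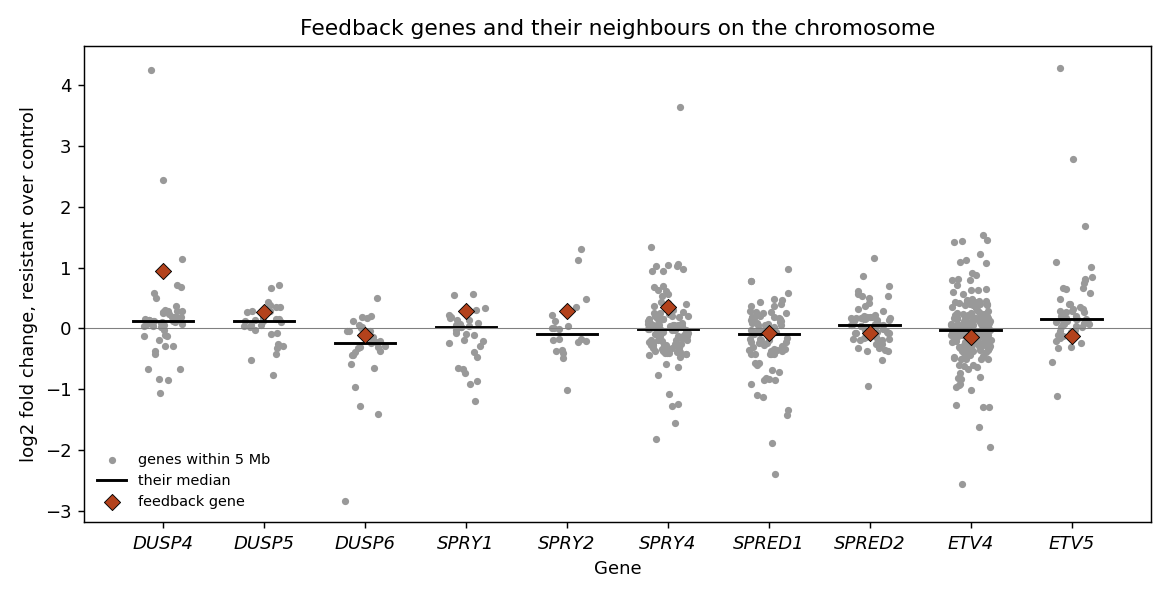
Log2 fold change, resistant over control, of each feedback gene (orange diamond) and of the genes of at least 1 CPM that start within 5 Mb of it (grey points, spread sideways for sight; black line, median). DUSP4 lies above 94.0% of its 50 neighbours, and the neighbours of DUSP6 have a median of -0.24.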

How the data were processed

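Gene counts from 4 polyA-selected, strand-specific, paired-end RNA libraries of A375 cells were used, grouped by their titles. Per the file headers, the authors deposited raw counts per gene from featureCounts 2.0.0 with GENCODE release 42, run with no option but the annotation and output; its defaults ignore strand, count mates singly and drop reads shared between genes. STAR, DESeq2 and GRCh38 are named in the submitters' processing notes. Resistant files carry other numbers than the labels, so each was taken as the record it was deposited under. The authors' deposited table of log2 fold changes entered no test.

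Genes were filtered with filterByExpr (24961 kept), scaled with TMM and tested with edgeR 4.0.16 (quasi-likelihood, group alone, two-sided, Benjamini-Hochberg over all genes, threshold 0.05; R 4.3.3, DESeq2 1.42.0 beside it). SE was derived from the log2 fold change and its F statistic. The biological coefficient of variation was 25.5%. On counts simulated for this comparison (23956 genes), edgeR found 35 of 67 true 2-fold changes, 61 of 67 at 4-fold and 66 of 66 at 8-fold. Each simulated gene took the spread that the trend over expression level gave, with no further differences between genes. These rates therefore need not hold for the real counts. A count of 3 equals 0.0346 to 0.0422 CPM; such floors cover counting error only. Alternatives were DESeq2, RLE and upper-quartile factors, no filter, each library left out, a replicate block and control replicate 1 halved. Members and lists were chosen with earlier results of these data known. The text names all members and, per other list, genes past the threshold and up to 4 with the largest change among those of at least 5 CPM. The melanoma lineage genes named do not follow this rule. Not all that it picks are given, and TYR and DCT fall under that level. A gene that this rule names is not reported here. Drug-treated libraries and glycan measurements were not analysed here.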

Additional observations from a re-analysis of the deposited data

How the results depend on the processing

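DUSP4 alone changed its call without a library being left out: 1 member was called higher with DESeq2 and 1 with no filter on low counts, against 0 with edgeR as reported. All 60 member values under the 6 settings that keep every library had the sign reported. With 1 library left out, the number of members called higher ranged from 0 to 2 and those at an unadjusted p under 0.05 from 1 to 3, and 7 of 40 values changed sign. The log2 fold change then ranged from -0.40 to 0.29 for DUSP6, -0.28 to 0.70 for SPRY1, -0.15 to 1.16 for SPRY4, -0.31 to 0.20 for SPRED2, -0.44 to 0.12 for ETV4 and -0.26 to 0.03 for ETV5. The cause was not tested. Over all tested genes, 272 were called by edgeR, 1222 by DESeq2, 1866 without the filter, and 16 (without resistant replicate 2) to 2166 (without control replicate 2) with 1 library left out. With the replicate number as a block, edgeR called 64 genes and no member, and BRAF (adjusted p = 0.0577) and KRT14 (0.0912) missed the threshold. Same-numbered libraries did not deviate together (correlation -0.00571 across 10100 genes). The labels do not pair them, and this correlation cannot show whether they shared a culture or a sequencing run. Mates were counted singly, so independent fragments are fewer than counts, and whether reads of control replicate 1 entered more than once was not tested.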

Other observations

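The authors' deposited table of 1533 gene symbols with a log2 fold change names no comparison, and 1 of the 10 feedback genes is listed in it. Of its genes, 1395 were matched to the edgeR fit, and 99.9% of these had the sign of the fit (Pearson r = 0.959). Its values thus run in the direction of resistant over control. The authors' deposited table gives DUSP4 a value of 0.92, where the edgeR fit of the counts gave 0.94. The authors' deposited table also lists the phosphatase genes DUSP2 (0.94), DUSP9 (1.38), DUSP7 (-0.55) and DUSP10 (-0.87), and for these the edgeR fit gave 0.93, 1.35, -0.57 and -0.86.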
